A study of Mus musculus with 15 samples.

Results

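Brca1, Brca2, Brip1, Rad51ap1, Fanca, Fancd2, Fanci, Blm and Exo1 act in homologous recombination and in the Fanconi anaemia pathway. These 9 genes were chosen by name, with earlier results of these data known. Each was read by the probe set assigned to it alone, out of 19938 genes that have such a probe set on the arrays. Each had 1 probe set of its own and 0 shared with another gene. Homologous recombination mends a double-strand break by copying the intact sister chromatid, so it works mainly in S and G2 phase. The broken ends are cut back to single strands, and with the help of Brca1 and Brca2 the strand is then paired with its template. The Fanconi proteins deal with crosslinks between the strands and with stalled replication forks, and pass the lesion on to recombination. In many tissues transcription of these genes follows the cell cycle, and loss of BRCA2 in particular is linked in humans to aggressive prostate cancer.

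RNA of ventral prostate epithelial cells from FVB mice was measured on 15 arrays, 3 in each of 5 groups. The groups were cells transformed by the c-myc gene (labelled Myc), by neuT (an activated Erbb2 receptor), by ha-ras (a small GTPase) or by v-src (a tyrosine kinase), and primary cultures without a transduced gene (control). Per the series' design text each oncogene is represented by 3 lines. Nothing in the labels says whether the 3 control arrays came from separate animals or cultures, so p-values cover only how far these samples vary, which could be technical variation. The lines were kept in serum-containing medium, whereas the control cells stayed in primary culture medium until the night before harvest. Medium and transformation cannot be told apart in any comparison with control. All values are log2 expression as the authors deposited it, so a difference of 1 is a 2-fold change. Probe sets differ in brightness, and levels are therefore compared between arrays and not between genes.

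Array medians over all probe sets lay between 6.19 and 6.32, and the median of all gene values was 6.47. Erbb2 was higher in the NeuT arrays than in control (log2 change 1.70 ± 0.13 (SE), adjusted p = 4.27e-07). The log2 change of Myc against control was -0.92 ± 0.19 in the group labelled Myc (adjusted p = 0.00207), which goes against that label, and Src did not pass in the arrays labelled Src (0.05 ± 0.09, adjusted p = 0.743). Whether these probe sets read the transduced copies was not tested, and directions drawn from those groups rest on the labels. The 8 basal epithelial markers averaged 7.84 to 7.95 in the arrays labelled Myc, 6.90 to 6.97 in NeuT, 6.32 to 6.45 in Ras, 9.85 to 10.05 in Src and 9.51 to 10.06 in control. The 8 measured luminal markers averaged 8.62 to 8.69 in Myc, 8.88 to 9.05 in NeuT and 5.95 to 6.48 in Ras. Their mean was 8.37 to 8.46 in Src and 9.38 to 9.61 in control. Among them the keratin Krt8 was at 7.32 to 7.73 and Epcam at 4.38 to 4.47 in Ras. In control these were at 12.78 to 12.95 and 9.53 to 9.78. Tmprss2 was at 5.30 to 5.88 in the lines and 8.47 to 8.86 in control. The prostate secretory gene Pbsn was at 2.99 to 3.29 in all 15 arrays. The 5 smooth muscle markers averaged 5.84 to 5.92 in Myc, 5.87 to 5.95 in NeuT, 5.78 to 6.59 in Ras, 6.35 to 6.49 in Src and 7.47 to 7.94 in control, with Acta2 at 6.06 to 8.70 in the lines and 9.88 to 10.54 in control. The 6 fibroblast markers averaged 6.01 to 6.02 in Myc, 6.06 to 6.08 in NeuT and 6.05 to 6.16 in Src. Their mean was 6.43 to 6.81 in Ras and 6.31 to 6.50 in control. Among them Dcn ranged from 7.52 to 8.96 in Ras and from 6.78 to 7.39 in control, and did not exceed 5.47 in Myc, NeuT or Src. Col3a1 was at 6.73 to 6.92 in Ras and 6.18 to 6.34 in control. Pdgfra went the other way, at 6.32 to 6.63 in Ras and 6.69 to 7.38 in control. The part of these differences in cell type markers in the results was not tested. Control array 3 carried kidney transcripts. The mean of 9 kidney tubule markers was 9.53 in that array, against 5.71 and 5.78 in control arrays 1 and 2, with 8 of the 9 at least 2-fold higher. Endothelial markers averaged 6.99 there, against 5.23 and 5.29 in the other control arrays, with 5 of 6 at least 2-fold higher.

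The 9 genes were higher in the transformed cells. With the 4 oncogene groups averaged and set against control, 9 of 9 rose and 0 fell at an adjusted p under 0.05, where 15.4% of all genes tested rose and 13.4% fell. The median log2 change of the 9 was 1.04, against 0.04 over all genes. Of the 9, 6 rose at least 2-fold, against 1.71% of all genes, and 7 of 9 had all 12 line arrays above all control arrays, against 5.44%. By group, 8 of 9 rose in the arrays labelled Myc (15.9% of all genes), 9 of 9 in NeuT (15.2%), 8 of 9 in Ras (13.3%) and 8 of 9 in Src (14.2%), and 0 fell in any of these groups. At least 2-fold rises were counted for 6 in Myc (2.86% of all genes), 7 in NeuT (2.8%), 7 in Ras (3.1%) and 4 in Src (1.51%). Non-overlapping arrays, with every line array above control, were seen for 9 genes in Myc (23.6% of all genes), 9 in NeuT (23.4%), 8 in Ras (18.9%) and 8 in Src (26.3%). Genes that fell made up 12.7%, 11.6%, 14.2% and 12.2% of all genes in Myc, NeuT, Ras and Src. Median log2 changes were 1.32, 1.25, 1.17 and 0.93 in Myc, NeuT, Ras and Src, against 0.03, 0.02, 0.02 and 0.06 over all genes. Brca1, Brip1, Rad51ap1, Fancd2, Fanci, Blm and Exo1 rose in each of the 4 groups, 7 of 9, as did 3.64% of all genes. The 4 comparisons share the 3 control arrays. Since the genes were chosen with earlier results of these data known, the counts beside the shares of all genes are a description. In bulk RNA, a larger share of dividing cells and more RNA of these genes per cell cannot be told apart.

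**Figure D1:**
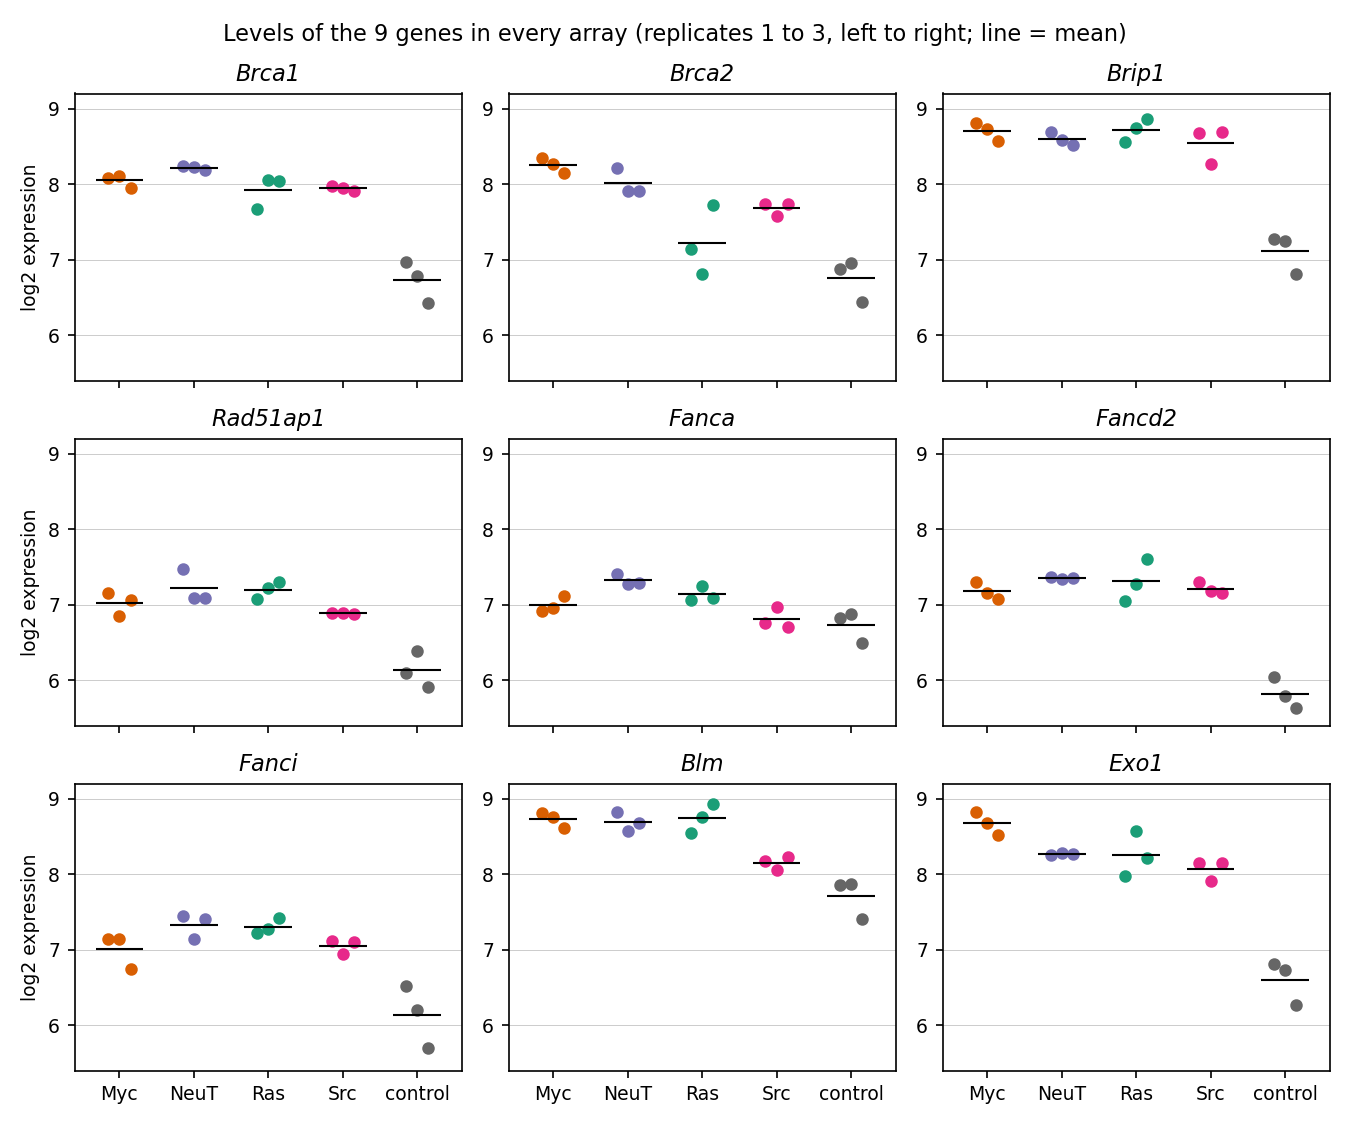
Log2 expression of each of the 9 genes in all 15 arrays, by group, with replicates 1 to 3 from left to right and a line at the group mean. All line arrays lie above all control arrays except for Brca2 in Ras and Fanca in Src.

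Promoter windows from RefSeq (GRCm38.p6, 250 bases before to 50 after the annotated start) were available for 7 of the 9 genes, all but Fancd2 and Exo1. They were searched on both strands for 4 E2F-like motifs. All motifs were chosen after the promoter letters were seen, so a larger share in the 7 windows is a description and not a test. TTCCCGC was found in 3 of the 7 windows (Brca2, Rad51ap1 and Fanci), and in 4.6% of all 32817 windows. TTGGCGC was found in Brca1 (2.45% of all windows). The Brip1 window held TTCGCGC (1.59% of all), and the Blm window TTGCCGC (1.81% of all). At least 1 of these was present in 6 of the 7 windows, and in 9.57% of all. The letters CCAAT were found in 5 of 7, and in 37.4% of all windows. The cell cycle homology letters TTTGAA were found in 0 of 7, and in 17.9% of all windows. The 7 windows held 53.7% to 66.0% G and C, with a median of 56.7%, against a median of 52.7% over all windows. No matches overlapped one another in the 7 windows. A match is a description of the letters and not evidence of binding.

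The match lay just after the start in Brca1, Rad51ap1 and Fanci (first base at +22, +13 and +19), and at -4 in Brip1. In Brca2 and Blm it lay further upstream, at -168 and -142. Fanca had 0 E2F-like matches and CCAAT at -50 and -23. Windows of 4 genes are shown to compare a match near the start (Rad51ap1 at chr6:126939538-126939837, minus strand, and Fanci at chr7:79392088-79392387, plus strand), a match far upstream (Brca2 at chr5:150522371-150522670, plus strand) and a window without one (Fanca at chr8:123318527-123318826, minus strand). They read 5′ to 3′ on the gene's strand, with the E2F-like match in capitals.
Rad51ap1: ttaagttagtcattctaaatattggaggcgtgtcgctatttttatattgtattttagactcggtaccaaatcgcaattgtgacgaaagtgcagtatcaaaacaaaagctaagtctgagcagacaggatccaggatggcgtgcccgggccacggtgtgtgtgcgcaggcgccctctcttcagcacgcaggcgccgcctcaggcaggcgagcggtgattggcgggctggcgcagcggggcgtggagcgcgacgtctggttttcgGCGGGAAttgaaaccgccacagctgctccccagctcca
Fanci: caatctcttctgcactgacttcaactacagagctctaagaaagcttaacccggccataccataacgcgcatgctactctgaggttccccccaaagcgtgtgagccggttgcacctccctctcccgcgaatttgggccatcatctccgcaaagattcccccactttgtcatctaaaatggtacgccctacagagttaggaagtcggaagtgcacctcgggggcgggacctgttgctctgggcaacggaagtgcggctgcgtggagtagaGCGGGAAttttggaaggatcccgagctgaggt
Brca2: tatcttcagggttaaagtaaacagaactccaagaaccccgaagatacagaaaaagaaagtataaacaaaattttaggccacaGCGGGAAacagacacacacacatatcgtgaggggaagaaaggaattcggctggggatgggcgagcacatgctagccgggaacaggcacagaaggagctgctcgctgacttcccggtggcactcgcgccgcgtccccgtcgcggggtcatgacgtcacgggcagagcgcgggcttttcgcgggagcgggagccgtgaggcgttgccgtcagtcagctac
Fanca: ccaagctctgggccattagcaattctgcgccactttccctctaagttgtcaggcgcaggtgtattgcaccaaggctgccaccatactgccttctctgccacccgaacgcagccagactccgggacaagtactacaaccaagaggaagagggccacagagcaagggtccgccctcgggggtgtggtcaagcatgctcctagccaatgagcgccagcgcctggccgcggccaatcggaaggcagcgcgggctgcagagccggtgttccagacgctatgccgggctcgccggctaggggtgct

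**Figure D2:**
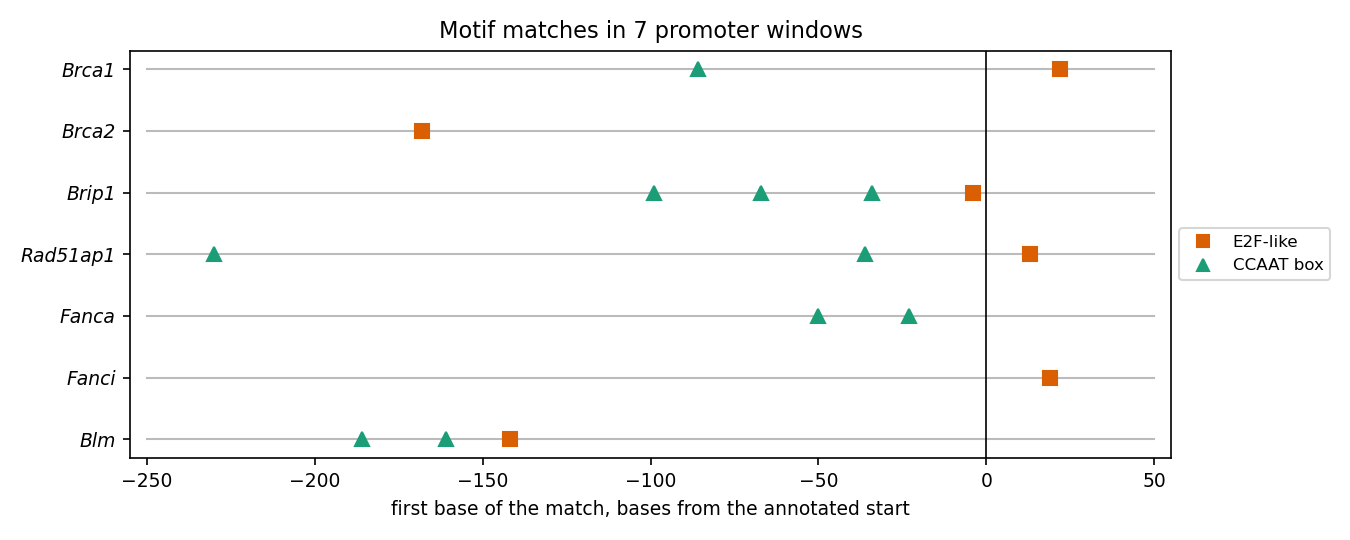
Position of E2F-like matches (squares) and CCAAT matches (triangles) in 7 promoter windows, as the distance of the first base of the match from the annotated start. E2F-like matches lie close to the start in Brca1, Brip1, Rad51ap1 and Fanci, further upstream in Brca2 and Blm, and are missing from the Fanca window.

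Brca1 encodes the ubiquitin ligase that, with its partner Bard1, steers breaks towards end resection and recombination. It was at 8.09, 8.11 and 7.95 in the arrays labelled Myc, 8.24, 8.22 and 8.19 in NeuT, 7.67, 8.06 and 8.03 in Ras, 7.97, 7.95 and 7.91 in Src, and 6.97, 6.78 and 6.43 in control. Each of the 12 line arrays lay above the highest control array. Log2 changes against control were 1.32 ± 0.12, 1.49 ± 0.12, 1.20 ± 0.12 and 1.22 ± 0.12 in Myc, NeuT, Ras and Src (SE), with adjusted p from 8.85e-07 to 7.68e-06. Of the 6 pairs of oncogene groups 0 passed for Brca1, and its largest difference, NeuT over Ras, was 0.29 ± 0.12 (adjusted p = 0.101).

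Brca2 acts after the ends are cut back, when the single strand is readied for pairing with its template. It was at 8.35, 8.27 and 8.14 in the arrays labelled Myc, 8.22, 7.90 and 7.91 in NeuT, 7.14, 6.81 and 7.72 in Ras, 7.74, 7.57 and 7.74 in Src, and 6.88, 6.95 and 6.44 in control. The Ras arrays had the widest spread (SD 0.46) and overlapped with control, while the other line arrays were all above it. Brca2 rose in Myc (1.50 ± 0.19, adjusted p = 3.33e-05), in NeuT (1.25 ± 0.19, adjusted p = 0.000176) and in Src (0.93 ± 0.19, adjusted p = 0.00244). In Ras the log2 change was 0.47 ± 0.19 (95% confidence interval 0.06 to 0.88, adjusted p = 0.088). That value moved with single arrays. Without Ras array 2 it was 0.68 and passed (adjusted p = 0.0122), without Ras array 3 it was 0.22 (adjusted p = 0.345), and without control array 3 it was 0.31 (adjusted p = 0.278).

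Brip1, also called Fancj, is a helicase that binds Brca1. Its level ranged from 8.57 to 8.81 in the arrays labelled Myc, 8.52 to 8.69 in NeuT, 8.55 to 8.87 in Ras, 8.26 to 8.69 in Src and 6.80 to 7.27 in control. Every line array was above every control array. The log2 changes were 1.60 ± 0.14, 1.49 ± 0.14, 1.61 ± 0.14 and 1.43 ± 0.14 in Myc, NeuT, Ras and Src, with adjusted p from 9.15e-07 to 5.33e-06. They spanned 0.18, and the difference among the oncogene groups did not pass (adjusted p = 0.651).

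Rad51ap1 promotes the invasion of the template duplex by the single strand. It ranged from 6.85 to 7.16 in the arrays labelled Myc, 7.09 to 7.47 in NeuT, 7.07 to 7.30 in Ras, 6.88 to 6.90 in Src and 5.92 to 6.39 in control. The line arrays were all above control. Changes of 0.89 ± 0.13, 1.08 ± 0.13, 1.06 ± 0.13 and 0.75 ± 0.13 in Myc, NeuT, Ras and Src had adjusted p from 2.36e-05 to 0.0007. Control levels of Rad51ap1 and Fancd2, and of Fanci in control arrays 2 and 3, were below 6.47, the median of all gene values. Brca1 (6.43), Brca2 (6.44) and Exo1 (6.26) were below it in control array 3 alone. Such levels may lie near background, which was not measured here. The size of the fold changes of these genes is thus less sure.

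Within the Fanconi pathway, Fancd2 and Fanci form the clamp that is tagged with ubiquitin at a blocked fork, and Fanca is part of the core complex that does the tagging. Fancd2 was at 7.30, 7.16 and 7.08 in the arrays labelled Myc, 7.36, 7.34 and 7.35 in NeuT, 7.05, 7.27 and 7.61 in Ras, 7.30, 7.18 and 7.16 in Src, and 6.04, 5.79 and 5.64 in control. The lowest line array (7.05) was far above the highest control array (6.04). Fancd2 rose by 1.36 ± 0.13, 1.53 ± 0.13, 1.49 ± 0.13 and 1.39 ± 0.13 in Myc, NeuT, Ras and Src (adjusted p from 7.51e-07 to 2.7e-06). Its range over the 4 oncogene means was 0.17, the smallest of the 9 genes. Fanci ranged from 6.75 to 7.14 in Myc, 7.14 to 7.45 in NeuT, 7.22 to 7.42 in Ras, 6.95 to 7.11 in Src and 5.70 to 6.52 in control, without overlap between lines and control. It rose by 0.87 ± 0.17, 1.20 ± 0.17, 1.17 ± 0.17 and 0.91 ± 0.17 in those groups, with adjusted p from 0.000103 to 0.00124.

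Fanca changed least. It was at 6.92, 6.96 and 7.12 in the arrays labelled Myc, 7.41, 7.28 and 7.29 in NeuT, 7.06, 7.25 and 7.09 in Ras, 6.76, 6.97 and 6.70 in Src, and 6.82, 6.88 and 6.49 in control. The Src arrays overlapped with control, and the lowest Myc array (6.92) stood just above the highest control array (6.88). Fanca rose in NeuT (0.60 ± 0.11, adjusted p = 0.000776) and in Ras (0.41 ± 0.11, adjusted p = 0.0112). It did not pass in Myc (0.27 ± 0.11, 95% confidence interval 0.04 to 0.50, adjusted p = 0.0822) or in Src (0.08 ± 0.11, interval -0.15 to 0.32, adjusted p = 0.599). In Myc it passed with median centring of the arrays (0.35, adjusted p = 0.0217), with quantile normalization (0.33, adjusted p = 0.0367) and without control array 2 (adjusted p = 0.0463), whereas without control array 3 the change was 0.15 (adjusted p = 0.341). In Ras it missed the threshold when the fit held just Ras and control (adjusted p = 0.0742).

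Blm and Exo1 act at the broken end, where the Blm helicase unwinds the DNA and the exonuclease Exo1 digests a strand. Blm also takes apart joined recombination intermediates with Top3a and Rmi1, and Exo1 serves mismatch repair as well. Exo1 was at 8.83, 8.68 and 8.52 in the arrays labelled Myc, 8.26, 8.29 and 8.27 in NeuT, 7.98, 8.57 and 8.21 in Ras, 8.15, 7.91 and 8.14 in Src, and 6.81, 6.73 and 6.26 in control. The line arrays lay clear of control, with the Myc arrays mostly at the top. It had the largest pooled change of the 9 (1.72 ± 0.12, adjusted p = 1.51e-07), and reached 2.08 ± 0.16 in Myc, a 4.22-fold difference. The changes in NeuT, Ras and Src were 1.67 ± 0.16, 1.65 ± 0.16 and 1.47 ± 0.16, with adjusted p from 1.79e-06 to 1.03e-05.

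Blm was at 8.81, 8.75 and 8.62 in the arrays labelled Myc, 8.83, 8.57 and 8.68 in NeuT, 8.55, 8.76 and 8.93 in Ras, 8.18, 8.06 and 8.22 in Src, and 7.86, 7.87 and 7.41 in control. The Src arrays stood between the other lines and control, without overlap on either side. Blm rose by 1.02 ± 0.13, 0.98 ± 0.13 and 1.04 ± 0.13 in Myc, NeuT and Ras, with adjusted p from 2.54e-05 to 4.93e-05. In Src it rose by 0.44 ± 0.13 (adjusted p = 0.0203). The Src call was lost without control array 3 (0.29, adjusted p = 0.0748), without Src array 1 (adjusted p = 0.0572), without Src array 3 (adjusted p = 0.0692) and when the fit held just Src and control (adjusted p = 0.0589).

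**Figure D3:**
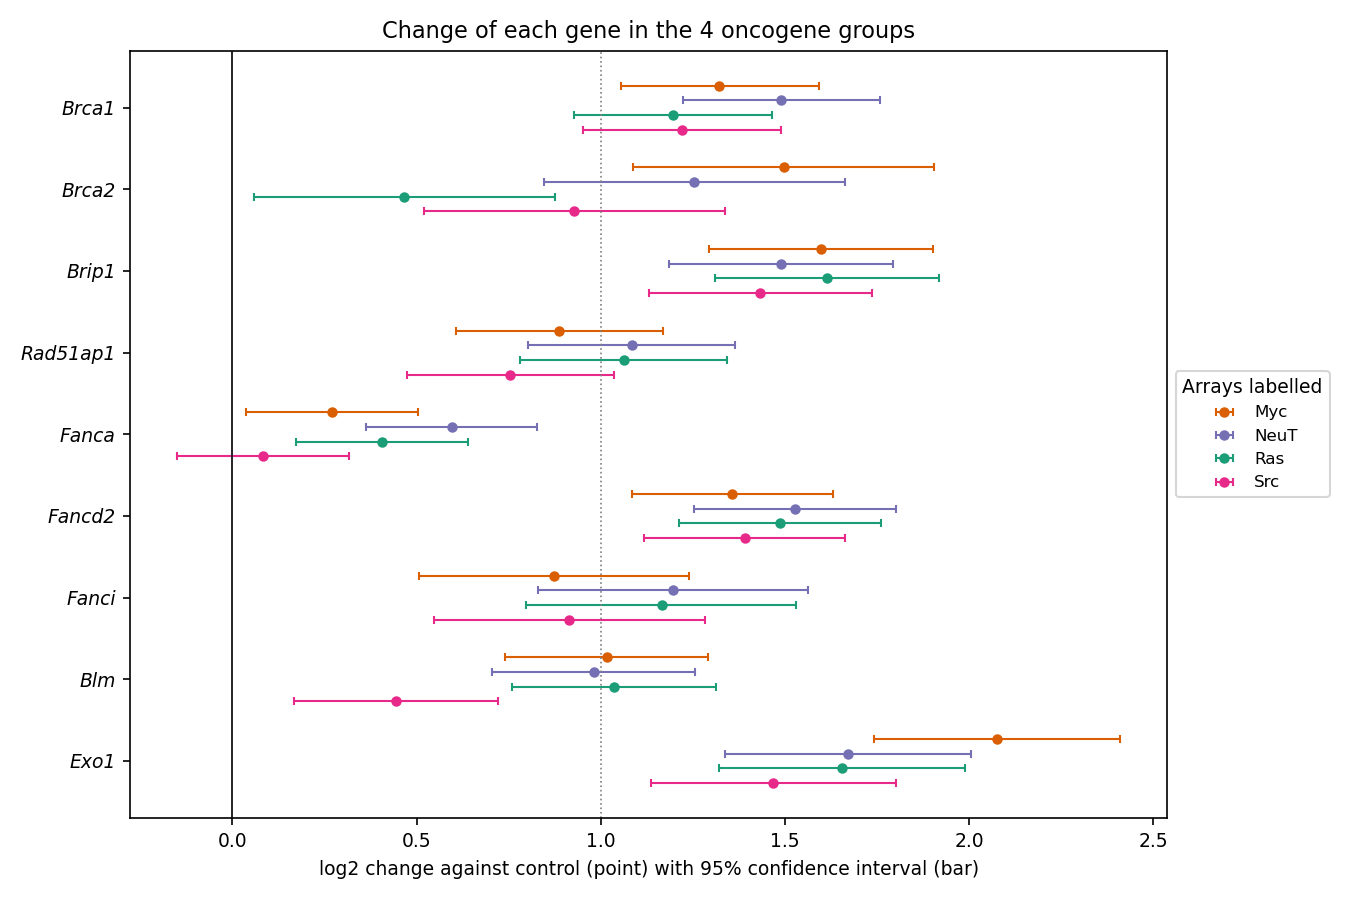
Log2 change of each gene against control in the arrays labelled Myc, NeuT, Ras and Src (points) with 95% confidence intervals (bars), a solid line at 0 and a dotted line at a 2-fold change. Exo1 in Myc lies furthest to the right at 2.08, and Fanca in Src, Brca2 in Ras and Blm in Src lie left of the other groups of their gene.

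Among the 4 oncogene groups, Brca2, Fanca, Blm and Exo1 differed, 4 of 9 by the F test, where 42.1% of all genes passed. That share is near the background. A range of at least 1 between group means was reached by Brca2 alone (1.03), as by 11.2% of all genes. In single pairs, 0 genes passed for Myc against NeuT, where 6.99% of all genes were higher and 7.95% lower. At an unadjusted p under 0.05, Fanca and Exo1 differed in that pair. Their 95% confidence intervals of -0.56 to -0.09 and 0.07 to 0.74 leave out 0. This looser rule was also met, without a call, by Exo1 in Myc against Ras and Brca2 in Myc against Src. The same held for Brca1 in NeuT against Ras, Brca1 and Rad51ap1 in NeuT against Src, and Brca2 and Rad51ap1 in Ras against Src. The share of all genes under that rule is not given, so none of these is counted as a difference. At the adjusted threshold, Myc against Ras had 1 of 9 higher (16.6% of all genes) and Myc against Src 2 (11.4%). NeuT against Ras had 1 (16.5%), NeuT against Src 2 (12.2%) and Ras against Src 2 (12.1%). In those 5 pairs 0 of the 9 were lower, where 11.8%, 7.57%, 11.6%, 7.95% and 14.1% of all genes were. At least 2-fold, Brca2 was higher in Myc than in Ras (3.06% of all genes), and 0 of 9 in Myc against NeuT (0.813%), Myc against Src (1.37%), NeuT against Ras (3.3%), NeuT against Src (1.98%) and Ras against Src (2.95%).

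Brca2 stood lower in Ras than in Myc and NeuT. It was 1.03 ± 0.19 higher in Myc than in Ras (adjusted p = 0.000823) and 0.79 ± 0.19 higher in NeuT than in Ras (adjusted p = 0.0058), with no overlap between arrays in either pair. Against Src, Ras was lower by a difference that did not pass (-0.46 ± 0.19, 95% confidence interval -0.87 to -0.05, adjusted p = 0.0932), but did with quantile normalization and without Ras array 3. Brca2 was 0.57 ± 0.19 higher in Myc than in Src, which did not pass either (adjusted p = 0.0517) and passed under 6 of the alternatives. Blm stood lower in Src than in each of the other oncogene groups. It was higher than in Src by 0.57 ± 0.13 in Myc (adjusted p = 0.00583), by 0.54 ± 0.13 in NeuT (adjusted p = 0.00824) and by 0.59 ± 0.13 in Ras (adjusted p = 0.00329).

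Fanca and Exo1 also differed from Src. Fanca was higher in NeuT than in Src by 0.51 ± 0.11 (adjusted p = 0.00373) and in Ras than in Src by 0.32 ± 0.11 (adjusted p = 0.0411). Exo1 was higher in Myc than in Src by 0.61 ± 0.16 (adjusted p = 0.0129). The Ras against Src call for Fanca was lost under 11 of 22 alternatives, with adjusted p from 0.0133 to 0.145 over all of them. The Exo1 call was lost without Myc array 1 (adjusted p = 0.0636) and without Src array 2 (adjusted p = 0.0627). Without overlap between arrays, 8 of 9 genes were higher in NeuT than in Src, as were 21.4% of all genes, and Brip1 was the exception. Of these 8 only Fanca and Blm passed the test. That pair had the highest such count. It was 1 for Myc over NeuT, 1 for Myc over Ras, 3 for Myc over Src, 3 for NeuT over Ras and 4 for Ras over Src. The share of all genes is not given for these pairs, so the counts and their order cannot be read as a result about the 9 genes. Lower without overlap, again without a share of all genes, were Brca1, Fanca and Fancd2 in Myc against NeuT, and Fanci in Myc against Ras.

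Control array 3, the array with kidney transcripts, was the lowest of the controls for each of the 9 genes. Their difference from the mean of control arrays 1 and 2 ran from -0.28 for Fancd2 to -0.66 for Fanci. The median was -0.45, against -0.06 over all genes, of which 61.6% were lower. By the same measure the medians of the basal, smooth muscle and luminal markers were -0.54, -0.45 and -0.28. Those of the fibroblast, leukocyte, endothelial and kidney tubule markers were -0.01, 0.11, 1.53 and 3.38. A drop of this size was thus not particular to the 9 genes. Without control array 3 the pooled comparison had 8 of 9 genes up, where 12.3% of all genes rose, and a median of 0.88. Fanca lost the pooled call (0.22 ± 0.08, adjusted p = 0.0729) and turned to -0.04 in Src. The counts without that array were 8, 9, 8 and 7 of 9 in Myc, NeuT, Ras and Src, where 14.4%, 13.5%, 12.1% and 11.6% of all genes rose. The changes of Brca1, Brip1, Fancd2 and Exo1 stayed above 1 in each of the 4 groups.

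**Figure D4:**
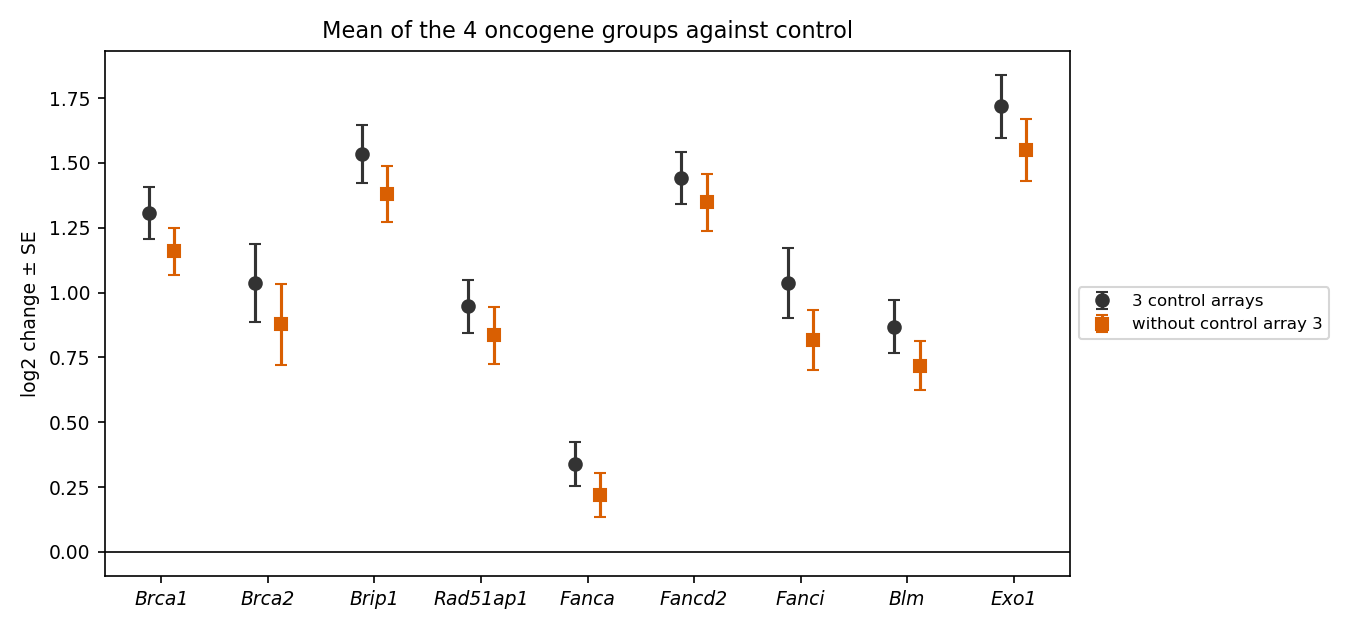
Pooled log2 change of each gene against control (± SE from limma) with all 3 control arrays (circles) and without control array 3 (squares). Each square lies below its circle, and Fanca stands at 0.22 without that array, against 0.34 with it.

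Other repair genes were read from lists grouped by role, with the 9 genes left out of each list. The lists were written with earlier results of these data known. Their pooled counts stand beside 15.4% of all genes that rose and 13.4% that fell. Of 30 measured genes of the recombination core, 17 rose and 0 fell in the pooled comparison, with a median log2 change of 0.36. The Holliday junction nuclease Gen1 rose most (1.61 ± 0.16, adjusted p = 2.95e-06). The end-joining polymerase Polq (0.91 ± 0.08), the helicase Rtel1 (0.78 ± 0.08) and the nuclease subunit Eme1 (0.94 ± 0.10) rose as well. Direct partners of the Brca proteins moved by different amounts. Bard1 rose by 1.01 ± 0.12 (adjusted p = 1.45e-05), and by 1.78 ± 0.15 in NeuT. Palb2, which joins Brca1 to Brca2, rose by 0.33 ± 0.08 (adjusted p = 0.00612) and did not pass in Src (0.12 ± 0.10, adjusted p = 0.388). The helicases Recql5 (-0.01 ± 0.08, adjusted p = 0.946) and Wrn (0.00 ± 0.07, adjusted p = 0.988) had the largest p-values in the pooled comparison. In Ras, Recql5 (-0.31 ± 0.10, adjusted p = 0.0405) and Rad51d (-0.34 ± 0.09, adjusted p = 0.013) fell. Rad51d rose in Myc (0.645 ± 0.092, adjusted p = 8.75e-05) and in NeuT (0.27 ± 0.09, adjusted p = 0.0434).

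Of 17 other Fanconi pathway genes, 8 rose and 0 fell, with a median of 0.07, close to the 0.04 over all genes. Fancb of the core complex rose by 1.24 ± 0.11 (adjusted p = 8.8e-07), the deubiquitinase Usp1, which removes the tag from Fancd2, by 0.93 ± 0.12 (adjusted p = 4.76e-05), and Ube2t, the ubiquitin-conjugating enzyme of the pathway, by 0.72 ± 0.10 (adjusted p = 5.12e-05). Faap24, a DNA-binding partner of the core complex, had log2 changes of 1.58 ± 0.13 in Myc, 1.21 ± 0.13 in NeuT, 0.53 ± 0.13 in Ras and 0.08 ± 0.13 in Src, where it did not pass (adjusted p = 0.675). The core complex gene Fancc (0.01 ± 0.06, adjusted p = 0.932) and the nuclease gene Ercc4 (0.01 ± 0.11, adjusted p = 0.97) did not pass.

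Checkpoint and signalling genes rose in 14 of 21, with 0 down and a median of 0.64. They included the fork protection factor Tipin (1.17 ± 0.07, adjusted p = 5.1e-08), its partner Clspn (1.17 ± 0.10, adjusted p = 1.09e-06), the kinase Chek1 (1.18 ± 0.14, adjusted p = 1.92e-05), the clamp subunit Hus1 (0.69 ± 0.08) and the kinase Atm (0.97 ± 0.11). Brcc3 (-0.04 ± 0.08, adjusted p = 0.737) and the Bard1-binding deubiquitinase Bap1 (-0.03 ± 0.06, adjusted p = 0.78) did not pass, but Bap1 rose in Myc (0.69 ± 0.08) and fell in NeuT (-0.26 ± 0.08) and Src (-0.57 ± 0.08). End joining genes rose in 2 of 8, with 0 down and a median of 0.10, where 15.4% of all genes rose and 13.4% fell. Xrcc6, the smaller subunit of the Ku dimer, rose by 0.71 ± 0.09 (adjusted p = 4.13e-05), and Xrcc5, the other subunit, did not pass (0.03 ± 0.07, adjusted p = 0.774). The polymerase gene Poll rose by 0.25 ± 0.08 (adjusted p = 0.0404). The related Polm (0.20 ± 0.08, adjusted p = 0.0729), Prkdc (0.14 ± 0.09, adjusted p = 0.275) and Xrcc4 (0.04 ± 0.13, adjusted p = 0.834) did not pass in the pooled comparison. By group, 3, 2, 1 and 4 of the 8 rose in Myc, NeuT, Ras and Src, where 15.9%, 15.2%, 13.3% and 14.2% of all genes did. Those that rose in Src included Prkdc (0.50 ± 0.12, adjusted p = 0.00514) and Xrcc5 (0.35 ± 0.09, adjusted p = 0.0117).

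Mismatch repair genes, with which Exo1 works, rose in 4 of 5, with 0 down and a median of 0.93. Msh6 (0.97 ± 0.08), Msh3 (0.57 ± 0.06), Pms1 (0.93 ± 0.11) and Pms2 (0.94 ± 0.12) rose. Mlh3, which acts mainly in meiosis, did not pass (-0.22 ± 0.12, adjusted p = 0.166), while in Ras it fell by 1.43 on the log2 scale (adjusted p = 3.64e-06). Other listed genes that fell in a single group were Faap20 (-0.26 ± 0.08), Babam1 (-0.52 ± 0.13) and Lig4 (-0.42 ± 0.10) in Ras, and Wdr48 (-0.37 ± 0.13) in Src. These 4 and Rad51d are named for their values, outside the rule for named genes. Of them, Babam1 rose in NeuT (0.52 ± 0.13, adjusted p = 0.00627), and Rad51d in Myc and NeuT.

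**Figure D5:**
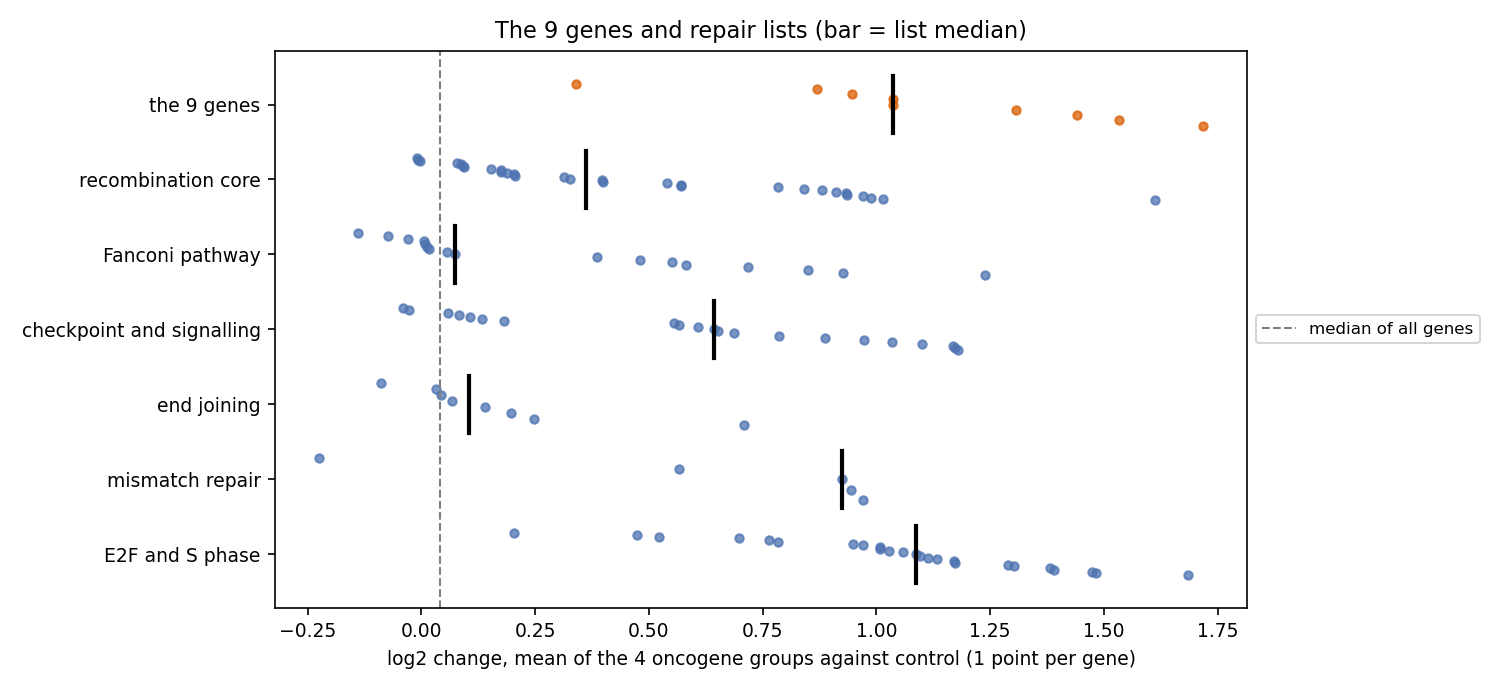
Pooled log2 change against control of the 9 genes and of the other genes of 6 lists, with 1 point per gene, a bar at each list's median and a dashed line at the median of all genes (0.04). The 9 genes (median 1.04) lie with the E2F and S phase list (median 1.09), and the Fanconi pathway list (median 0.07) spreads around the line.

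Genes of the E2F and S phase list were higher in the lines as well. The list holds genes of the G1/S transition and of DNA synthesis, and other cell cycle genes such as Cdk1, Foxm1, Top2a and Mki67. Of its 25 measured genes, 24 rose and 0 fell in the pooled comparison, with a median of 1.09, against 1.04 for the 9 genes. They included the thymidylate synthase Tyms (0.97 ± 0.07), the repressor E2f7 (1.09 ± 0.08) and the helicase subunits Mcm5 (1.29 ± 0.10) and Mcm2 (1.01 ± 0.08). E2f1, an activator of such genes, rose by 0.52 ± 0.10 (adjusted p = 0.000727), and E2f2 did not pass (0.20 ± 0.12, adjusted p = 0.215). Medians of the list were 1.02, 1.18, 1.06 and 0.97 in Myc, NeuT, Ras and Src. In control array 3 the list was lower than in the other controls in 25 of 25 genes (median -0.47). Basal, smooth muscle and luminal markers were lower there by median as well, as given above. The part of the cell cycle in the change of the 9 genes was not tested.

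Over the 15 arrays, the mean of the 9 genes was followed most closely by the condensin subunit Ncaph (Pearson r = 0.982), the spindle protein Aspm (0.976), the kinetochore protein Cenpu (0.974) and the checkpoint kinase Bub1b (0.974). The nuclear pore proteins Nup205 (0.972) and Nup107 (0.971), the Integrator subunit Ints7 (0.97) and the tRNA synthetase subunit Farsb (0.969) came next. These were the 8 highest of 9960 genes at or above the median level. The points share the 3 control arrays at the low end of each gene, and the values are a description. Ncaph, for example, averaged 9.32, 9.34, 9.24 and 8.84 in Myc, NeuT, Ras and Src, and 7.74 in control.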

How the data were processed

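The 15 arrays were compared as log2 values, which the authors deposited after normalization across arrays. The submitters' processing notes name RMA and Affymetrix Expression Console 1.1, while a build and background settings are not given in these sources. Of the deposited probe sets, 21789 were assigned to 1 gene by the platform annotation, and the brightest by mean was taken for the 999 genes with several, which gave 19938 genes. Low values were not filtered.

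A model of 5 group means over all 15 arrays was fitted with limma 3.58.1 (lmFit and eBayes, R 4.3.3) and tested on simulated data. P-values are two-sided, Benjamini-Hochberg adjusted over all genes of a comparison, and genes were called at 0.05. Errors of changes are SE. Of each list, the 4 smallest and 2 largest adjusted p in the pooled comparison were named, plus the partners Bard1, Palb2, Chek1 and E2f1. The members, lists and tests were chosen with earlier results of these data known. Motifs were chosen after the promoter letters were seen. Same-numbered arrays of different groups had deviations correlated from -0.09 to 0.12, so replicate numbers were not used as pairs. Alternatives covered normalization, a level filter, probe set averaging, the variance model, the groups fitted, a replicate block, a 2-fold minimum and each array left out. Matplotlib 3.10.9 drew the figures. The number of arrays limits the precision.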

Additional observations from a re-analysis of the deposited data

Results flagged for a closer look

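Effects of the oncogenes against the shared controls differed between groups for 4 of the 9 genes, by the limma contrast of the groups themselves, a share close to the 42.1% of all genes that passed the F test among the oncogene groups. Brca2 was higher by 1.03 (log2) in Myc than in Ras and by 0.79 in NeuT than in Ras. Blm was higher than in Src by 0.57 in Myc, 0.54 in NeuT and 0.59 in Ras. Fanca was higher than in Src by 0.51 in NeuT and 0.32 in Ras, and Exo1 by 0.61 in Myc. Adjusted p ran from 0.000823 to 0.0411 over these 8 differences, each between 3 arrays and 3 arrays.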

How the results depend on the processing

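Of the 9 genes in 5 comparisons with control, 302 results under other settings kept their direction and their side of the threshold, 2 gained the call and 2 lost it. With 1 array left out, 668 kept both, 2 gained the call, 4 lost it and 1 turned. Many of these results had little room to move. Leaving out an array of neither group compared alters the error but not the log2 change. Averaging probe sets leaves the log2 changes of the 9 genes as they were, since each has 1 probe set. The totals are therefore not a measure of stability. Fanca in Src turned to -0.036 without control array 3, and ranged up to 0.158 without control array 2. Counts of genes called with 1 array left out ranged from 8 to 9 in Myc, 9 to 9 in NeuT, 8 to 9 in Ras, 7 to 8 in Src and 8 to 9 pooled. For the pairs they ranged from 0 to 2 (Myc against NeuT), 1 to 2 (Myc against Ras), 1 to 3 (Myc against Src), 1 to 2 (NeuT against Ras), 2 to 2 (NeuT against Src) and 1 to 2 (Ras against Src), and for the F test from 3 to 4. With a 2-fold minimum the counts were 4 for Src against control, 0 for Myc against Src, NeuT against Ras, NeuT against Src and Ras against Src, and 1 for the F test, which a stricter rule brings about by construction. Myc against NeuT gave 1 (Fanca) without genes below the median level and 2 (Fanca and Exo1) when only these groups were fitted, and 2 (Fanca and Exo1) without control array 3. Myc against Ras gave 2 (Brca2 and Exo1) with median centring, without genes below the median level, without Ras array 2 and without control array 3. NeuT against Ras gave 2 (Brca1 and Brca2) with median centring and without control array 3, NeuT against Src 5 (Brca1, Brca2, Rad51ap1, Fanca and Blm) when only these groups were fitted, and Ras against Src 1 (Blm) with median centring and without Myc array 2, NeuT array 2 or 3, Ras array 1 or 2, or Src array 1 or 3. Myc against Src gave 1 (Blm) without Myc array 1 or Src array 2, and 3 (Brca2, Blm and Exo1) without genes below the median level, with trended and robust eBayes, when only these groups were fitted, and without Ras array 2, Ras array 3 or control array 3. Ras against Src gave Brca2 and Blm, without Fanca, under quantile normalization and without Ras array 3, and Rad51ap1 and Blm when only these groups were fitted. The causes of these shifts were not tested. With the replicate block the counts were 8, 9, 8, 8 and 9 for Myc, NeuT, Ras, Src and the pooled lines against control, and the block changed no call of the 9 genes there. For the pooled lines, fitting only the groups compared is the same fit and was not run.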
